A study of Mus musculus with 4 samples.

Results

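The 9 NF-kappaB genes examined were the 5 subunit genes Nfkb1, Nfkb2, Rel, Rela and Relb, the 3 inhibitor genes Nfkbia, Nfkbib and Nfkbie, and Tnfaip3, which encodes the ubiquitin-editing brake A20. They were taken by name from the 50600 genes of the count tables, each with any gene that shares exon bases with it on the opposite DNA strand. Of the 9 genes, 2 had such a partner, Nfkb2 and Nfkbib, beside 4801 of the 21764 protein-coding genes. The partners of these 2 were 3 genes in all. The 4 libraries come from C57BL/6NJ mice and are labelled as primary T-helper 2 cells, a CD4+ T cell type made here by a differentiation protocol. They form 1 group, with no genotype change or treatment named, and are biological replicates 1 to 4 with 1 donor identifier. The assay is labelled total RNA-seq, while the linked library protocol is named for poly(A)+ RNA. The input names in the file headers place them at 0 hours of a time course, and sex and age are not given. Nothing in the sources used here says whether the replicates came from separate mice or cultures, so p-values over the libraries measure only the spread between these samples, which may be technical.

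NF-kappaB is a family of dimeric transcription factors that share a DNA-binding Rel homology region. In resting lymphocytes the dimers are held in the cytoplasm by inhibitor proteins of the IkappaB family. Signals from the antigen receptor, the costimulatory receptor CD28 or receptors of the TNF superfamily activate kinases that mark the inhibitors for destruction, and the dimers enter the nucleus. The targets include the genes of the inhibitors and of A20, which close a feedback loop. Relb and the product of Nfkb2 form the dimer of a slower, alternative branch.

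Libraries held 1452053 to 2351916 counts, and the limit that a count of 0 allows, taken as 3 counts, was 1.28 to 2.07 CPM (counts scaled to the same total in each library). Intervals and this limit cover counting error only, because PCR copies cannot be told from separate molecules here. Each count is a fragment assigned to the strand on which the gene is annotated, under the strand setting 1 of the counting program. Which strand the library kit reads was not stated in the sources at hand. At Cd3e, a T cell receptor subunit gene, 51, 97, 43 and 34 counts stood against 6532, 6058, 5290 and 3960 in Gm48719 on the other strand, and at Jund 160, 220, 139 and 123 against 10482, 10394, 8016 and 6958 in Gm11175. Protein-coding genes with an opposite-strand exon overlap held 37.8% to 44.5% of a library and the far more numerous ones without it 8.63% to 10.6%. Whether the strand setting is opposite to the kit was not tested. If it is, the TPM values below count antisense fragments, and the fragments of a gene are counted in its opposite gene, which turns the meaning of each strand comparison. Levels below therefore mean fragments on the annotated strand and not expression. With that limit, all 7 T cell markers reached 1 TPM on the annotated strand, with summed levels of 234.6 to 373 CPM per library. Of 6 Th2 markers 2 reached it, Gata3 at 5.87 ± 2.08 and Il4 at 7.96 ± 5.76 TPM (SD, n = 4), and Il5 and Il13, which define the lineage, were at 0 counts. Opposite to Gata3, Gm13256 had 160 CPM on average against 15.3 for Gata3. The 3 Th1 and 3 Th17 markers were at 0. Markers of other cells summed to 59.2 to 72.3 CPM for B cells (2 of 5 detected, Ms4a1 at 0) and to 296 to 388 CPM for myeloid cells (2 of 6 detected, Lyz2 at 0). Of the myeloid sum, 2680 of 2740 counts lay in Csf1r, which shares exon bases with Hmgxb3 on the other strand. On these counts the cell label could not be checked by expression. The part of other cell types in the values below was not tested.

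The highest level of the family was 31.1 TPM and the lowest 0.606, and the pair of genes that overlap another gene stood at the top. In TPM (counts per exon length scaled to the same total in each library) the means fell in the order Nfkb2, Nfkbib, Nfkbia, Rela, Nfkb1, Tnfaip3, Rel, Nfkbie and Relb. A mean of 1 TPM or more was reached by 7 of the 9 genes, beside 34% of the 21764 protein-coding genes. Among the 7 family genes without an exon overlap, 5 reached it, beside 27.2% of protein-coding genes without one. Protein-coding genes with an overlap stood higher in general. The 4801 with one held 41.5% of a library on average, and the 16963 without one 9.45%. The place of Nfkb2 and Nfkbib at the top is therefore no result about these 2 genes. The median over the family was 2.59 TPM.

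**Figure D1:**
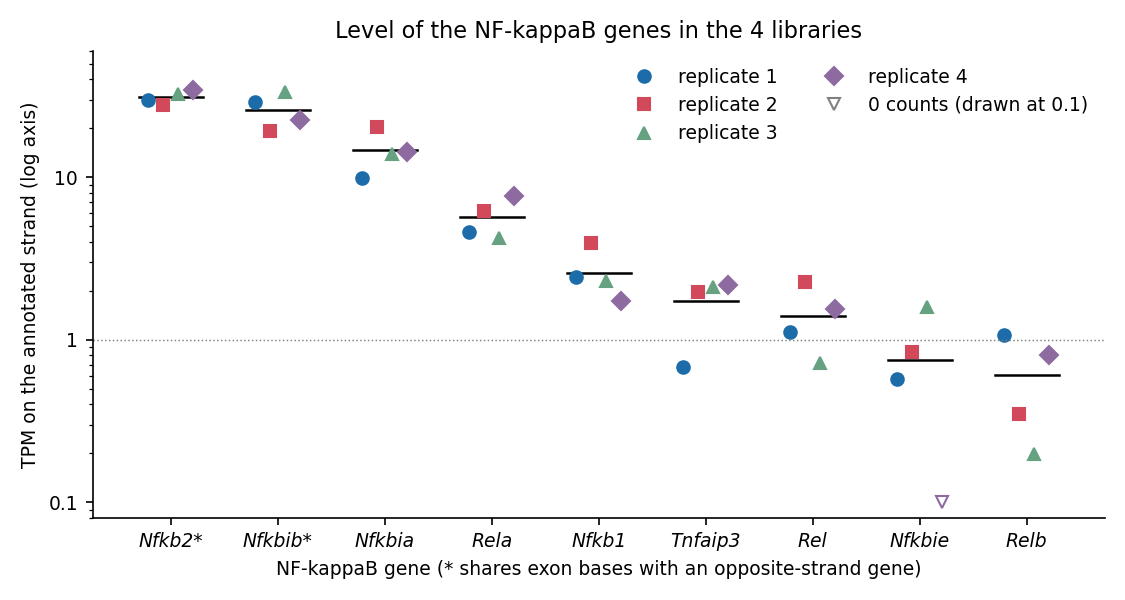
TPM on the annotated strand (log axis) of the 9 NF-kappaB genes, with 1 symbol per library, a bar for the mean a dotted line at 1 TPM, an asterisk for opposite-strand exon overlap and an open triangle for the 0 counts of Nfkbie in replicate 4, drawn at 0.1. Nfkb2 and Nfkbib lie highest, at means of 31.1 and 26.1 TPM, and Relb lowest at 0.606.

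Among the subunits, Nfkb2 (ENSMUSG00000025225.14, mm10 chromosome 19, 46304737 to 46312090, plus strand, exon length 3289 bases) had the most fragments. Its product p100 is both a precursor of the subunit p52 and an inhibitor. It had 142, 135, 139 and 108 counts in replicates 1 to 4, or 30.0, 27.6, 32.4 and 34.3 TPM. The libraries lay close together, at 31.1 ± 2.87 TPM (SD, n = 4), above 95.4% of protein-coding genes.

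Rela (ENSMUSG00000024927.7, chromosome 19, 5637483 to 5648130, plus strand) encodes p65, the subunit with the main activation domain of the canonical branch. It had 18, 25, 15 and 20 counts, or 4.61, 6.20, 4.23 and 7.68 TPM. Replicate 4 was highest and replicate 3 lowest, with a mean of 5.68 ± 1.58 TPM (SD, n = 4).

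Nfkb1 (ENSMUSG00000028163.17, chromosome 3, 135584655 to 135691547, minus strand) encodes p105, the precursor of p50, the usual partner of p65. Its 42, 70, 36 and 20 counts are more than those of Rela in 3 libraries, but they fall on 12061 exon bases. Per length they came to 2.42, 3.91, 2.29 and 1.73 TPM, below Rela in every library. The mean was 2.59 ± 0.930 TPM (SD, n = 4), with replicate 2 highest.

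Rel (ENSMUSG00000020275.9, chromosome 11, 23736847 to 23770970, minus strand) encodes c-Rel, a subunit abundant in lymphocytes. Its counts were 12, 25, 7 and 11, or 1.12, 2.25, 0.718 and 1.54 TPM. Relb (ENSMUSG00000002983.17, chromosome 7, 19606217 to 19629438, minus strand) had 6, 2, 1 and 3 counts, or 1.07, 0.347, 0.197 and 0.806 TPM. Rel was the higher of these in each library, by as little as 0.053 on the log2 scale in replicate 1 and by 2.40 in replicate 2.

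Of the inhibitors, Nfkbib (ENSMUSG00000030595.15, chromosome 7, 28758251 to 28767512, minus strand), which encodes IkappaB-beta, stood highest. It had 90, 62, 95 and 47 counts, or 28.9, 19.2, 33.6 and 22.6 TPM, with a mean of 26.1 ± 6.39 (SD, n = 4). Nfkbia (ENSMUSG00000021025.8, chromosome 12, 55489410 to 55492647, minus strand) encodes IkappaB-alpha, the inhibitor that NF-kappaB itself induces fastest. It had 23, 49, 29 and 22 counts, or 9.94, 20.5, 13.8 and 14.3 TPM. Replicate 2, the highest for Nfkbia, was the lowest for Nfkbib, and their ranges overlapped. Nfkbie (ENSMUSG00000023947.7, chromosome 17, 45555716 to 45563169, plus strand), which encodes IkappaB-epsilon, had 2, 3, 5 and 0 counts. The 0 in replicate 4 allows up to 2.07 CPM there.

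Tnfaip3 (ENSMUSG00000019850.11, chromosome 10, 19000910 to 19015657, minus strand) had 7, 21, 20 and 15 counts, or 0.674, 1.96, 2.12 and 2.17 TPM. Replicate 1 lay below the other libraries, which were close to each other.

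Promoters are shown because NF-kappaB is known to act on several of its own genes. RefSeq promoter windows (GRCm38.p6, the same build) were matched for 7 of the 9 genes and not for Nfkb1 and Relb. The 250 bases before the start site were searched on both strands for the kappaB consensus, a motif of 10 bases. A match was found in at least 1 window of 5 genes, Nfkb2, Rel, Nfkbia, Nfkbie and Tnfaip3, and in none of Rela and Nfkbib. Over all 32851 windows 7.25% held one, beside 7 of the 10 windows of the family. These windows are not independent, because Nfkb2 has several with a match. Of those, 46305445 to 46305694 and 46305680 to 46305929 overlap. By gene, 5 of the 7 matched genes held a match, beside 2225 of 27025 genes. A match is a run of letters and not a measured binding site. The windows of Nfkbia and Nfkbie lie outside annotated exons and are printed whole, 5′ to 3′ on the strand of the gene, with the motif in capitals. That of Nfkbia is on chr12:55492648-55492897 (minus strand), with the motif 29 to 20 bases before the start, and that of Nfkbie on chr17:45555450-45555699 (plus strand), with the motif 106 to 97 bases before it.
Nfkbia: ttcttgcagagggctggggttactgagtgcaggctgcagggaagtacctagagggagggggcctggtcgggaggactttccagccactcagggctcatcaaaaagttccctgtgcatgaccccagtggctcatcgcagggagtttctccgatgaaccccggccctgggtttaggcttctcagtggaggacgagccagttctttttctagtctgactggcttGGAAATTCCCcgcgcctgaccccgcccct
Nfkbie: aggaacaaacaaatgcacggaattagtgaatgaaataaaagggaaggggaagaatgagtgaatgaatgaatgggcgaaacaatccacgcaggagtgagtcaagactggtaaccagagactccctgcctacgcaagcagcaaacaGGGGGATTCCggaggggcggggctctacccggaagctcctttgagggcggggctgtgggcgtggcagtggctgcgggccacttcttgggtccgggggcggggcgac

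For the other 3 genes 30 bases around a match are given, again with the matched bases in capitals. At Nfkb2 (chr19:46304688-46304717, plus strand) and at Rel (chr11:23771042-23771071, minus strand) matches on both strands overlap, so that 11 bases are marked, and the window of Nfkb2 lies in an exon of release 21. The site of Tnfaip3 (chr10:19015411-19015440, minus strand) ends 3 bases before the start.
Nfkb2: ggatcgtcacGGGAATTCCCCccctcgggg
Rel: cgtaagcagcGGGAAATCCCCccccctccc
Tnfaip3: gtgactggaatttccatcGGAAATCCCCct

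No relation between the motif and the counts was tested.

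Neighbours in this order did not all stand apart. Nfkbia exceeded Rela, and Rela exceeded Nfkb1, in all 4 libraries with ranges that did not overlap, by 1.34 ± 0.42 and 1.13 ± 0.65 on the log2(TPM + 0.1) scale (SD, n = 4). For the other 6 neighbouring pairs the ranges overlapped. The order of Tnfaip3 and Rel, for example, held in 2 of 4 libraries, with a difference of 0.26 ± 0.91. For Nfkbie and Relb the mean log2 difference was -0.10 ± 2.46, against the order of their mean TPM. The exact two-sided sign-flip permutation test over 4 libraries gives p = 0.125 at the least, so that no comparison of this kind can pass 0.05.

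A set of 8 ratios was computed between genes of like role, of which 7 had 1 sign in every library. Folds are ratios of counts summed over the libraries, per exon length, with exact (Clopper-Pearson) 95% intervals that cover counting error only. Nfkb2 exceeded Nfkb1, the gene of the other precursor, 11.4-fold (9.60 to 13.7). Rela exceeded Rel 3.90-fold (2.73 to 5.61) and Relb 9.30-fold (5.03 to 18.8), and Rel exceeded Relb 2.38-fold (1.26 to 4.89). Without replicate 1, which held 6 of the 12 counts of Relb, the last pair of folds became 14.3 and 3.73, and without replicate 2 that of Rel over Relb became 1.56.

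Nfkbia was 18.5-fold higher than Nfkbie (9.73 to 39.5; 28.3-fold without replicate 3), 8.76-fold higher than Tnfaip3 (6.42 to 12.1) and 5.48-fold higher than Nfkb1 (4.31 to 6.96). Against Nfkbib it was lower in 3 of 4 libraries, by a fold of 1.77 over all libraries (1.43 to 2.21), and the mean log2 difference was -0.84 ± 0.72 (SD, n = 4, exact sign-flip permutation p = 0.25). The 7 other ratios each had p = 0.125 by the same exact test, and Benjamini-Hochberg adjustment over the 8 gave 0.143. Without division by exon length the order of Nfkbia and Nfkb1 turned, to a mean log2 ratio of -0.39, and that of Rela over Rel fell from 2.01 to 0.63 and no longer had 1 sign in every library (exact sign-flip permutation p = 0.25).

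The opposite strand was measured at 3 overlaps. At the 3' end of Nfkb2 lies Psd, which encodes an exchange factor for the small GTPase ARF6 and runs toward Nfkb2 from the other side (chromosome 19, 46312087 to 46327156, minus strand). In GENCODE release 13, on which the counts rest, the last exons of these genes share 4 bases, 46312087 to 46312090, outside the coding sequence of both. Psd had 577, 488, 514 and 321 counts against the 142, 135, 139 and 108 of Nfkb2. Per kb of exon that was 148, 125, 132 and 82.2 counts for Psd, and 43.2, 41.0, 42.3 and 32.8 for Nfkb2. Psd was denser in all 4 libraries, 3.06-fold over their sum (95% interval 2.77 to 3.37).

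In log2 density Nfkb2 differed from Psd by -1.58 ± 0.19 (SD, n = 4, exact sign-flip permutation p = 0.125). Over 424 protein-coding genes that overlap an opposite gene by 50 bases or less, a limit chosen after the values were seen, the opposite gene was denser in all 4 libraries for 45.5% and the coding gene for 32.8%. Counting each pair of coding genes once, 1 gene was denser in all 4 libraries in 76.4% of 148 such pairs. Over all 4296 overlapping cases these shares were 56.3% and 31.2%, so a denser opposite gene in every library was common and is no result about Nfkb2. In GENCODE release 21, on the same build, the exons of Nfkb2 extend to 46312385 and share 299 bases with Psd. That release also has a further gene opposite to Nfkb2, ENSMUSG00000118087, with 531 shared bases, which was not counted in the tables.

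Nfkbib is overlapped at both ends. At its 3' end, 314 bases (chromosome 7, 28758655 to 28758968) are shared with Ccer2, which encodes a coiled-coil glutamate-rich protein. These bases lie outside the coding sequence of Nfkbib, and 87 of them are coding in Ccer2. Ccer2 had 16, 21, 4 and 10 counts, and Nfkbib was denser in all 4 libraries, 2.80-fold over their sum (95% interval 2.08 to 3.85). The log2 density difference was 1.60 ± 1.24 (SD, n = 4, exact sign-flip permutation p = 0.125). It was 1.02 without replicate 3, where Ccer2 had 4 counts. In the background of 4296 overlapping cases the coding gene was denser in all 4 libraries for 31.2%. Nfkbib was not tested against that share.

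At its 5' end Nfkbib shares 42 noncoding bases (28767471 to 28767512) with Sirt2, the gene of an NAD-dependent deacetylase that has p65 among its substrates. Sirt2 had 273, 276, 163 and 209 counts, or 54.2, 54.8, 32.4 and 41.5 per kb. Nfkbib had 41.5, 28.6, 43.8 and 21.7 per kb. Sirt2 was the denser gene in 3 libraries and Nfkbib in replicate 3, with a mean log2 difference of Nfkbib from Sirt2 of -0.45 ± 0.65 (SD, n = 4, exact sign-flip permutation p = 0.375). This difference was within the spread between libraries.

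**Figure D2:**
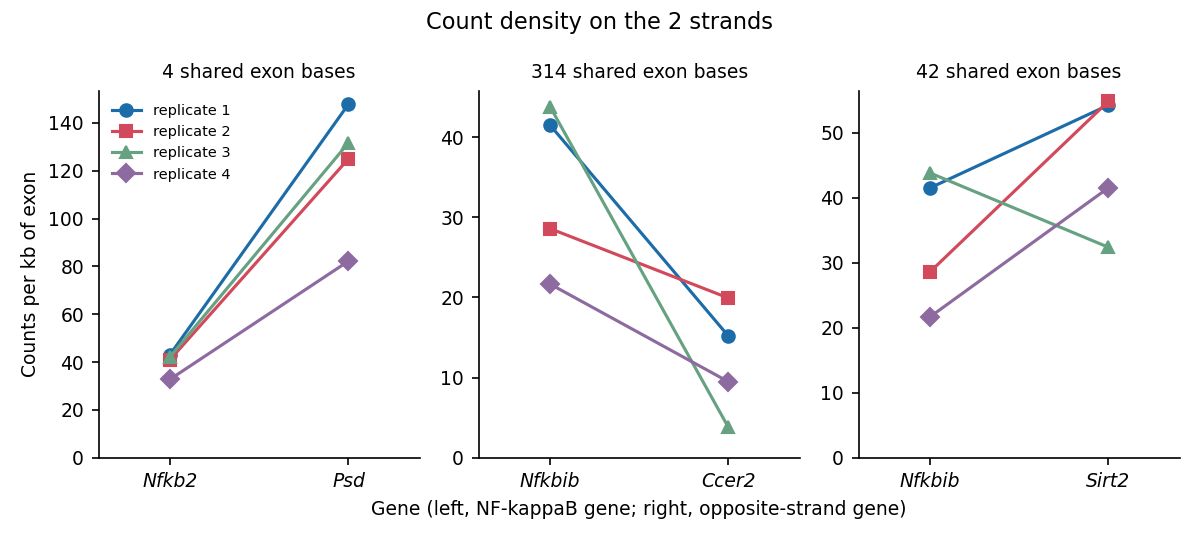
Counts per kb of exon for each overlapped NF-kappaB gene (left) and its opposite-strand gene (right), with 1 line per library. Psd lies above Nfkb2 in all 4 libraries, Ccer2 lies below Nfkbib in all 4, and the lines for Nfkbib and Sirt2 cross.

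The other 7 genes had no exon overlap in either release. The nearest opposite-strand genes within 5 kb were Pus10 beside Rel at 36.8 ± 6.52 CPM, Sipa1 beside Rela at 22.5 ± 5.47 CPM and Hsp90ab1 beside Nfkbie at 315 ± 8.89 CPM (SD, n = 4). They lie 3970, 3054 and 4605 bases away. Nfkb1, Relb, Nfkbia and Tnfaip3 had none within that distance.

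The summed counts of the genes without an overlap and those of Nfkb2 and Nfkbib did not follow each other across libraries. The 7 genes without an overlap summed to 51.6, 82.9, 58.8 and 62.7 CPM in replicates 1 to 4, highest in replicate 2. Nfkb2 and Nfkbib together had 109, 83.8, 122 and 107 CPM, lowest in replicate 2. The 7 T cell markers had 234.6, 373, 279.7 and 300.3 CPM, in the same order of libraries as the 7 family genes. All 16963 protein-coding genes without an exon overlap held 8.63%, 10.6%, 9.94% and 8.63% of the counts, also highest in replicate 2. The 4801 with an overlap held 43.3%, 37.8%, 44.5% and 40.2%, lowest in replicate 2 like Nfkb2 and Nfkbib. Per 10000 counts of the 16963 protein-coding genes without an overlap, the 7 family genes had 5.98, 7.83, 5.91 and 7.26. The highest library then exceeded the lowest 1.32-fold, where it had exceeded it 1.61-fold in CPM. Per 10000 counts of the overlapped genes, Nfkb2 and Nfkbib together had 2.51, 2.22, 2.73 and 2.65, and the highest exceeded the lowest 1.23-fold, against 1.45-fold in CPM. The ribosomal RNA locus CT010467.1 took 3.47% to 16.8% of a library, most in replicate 2. What these shares contribute to the values was not tested.

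**Figure D3:**
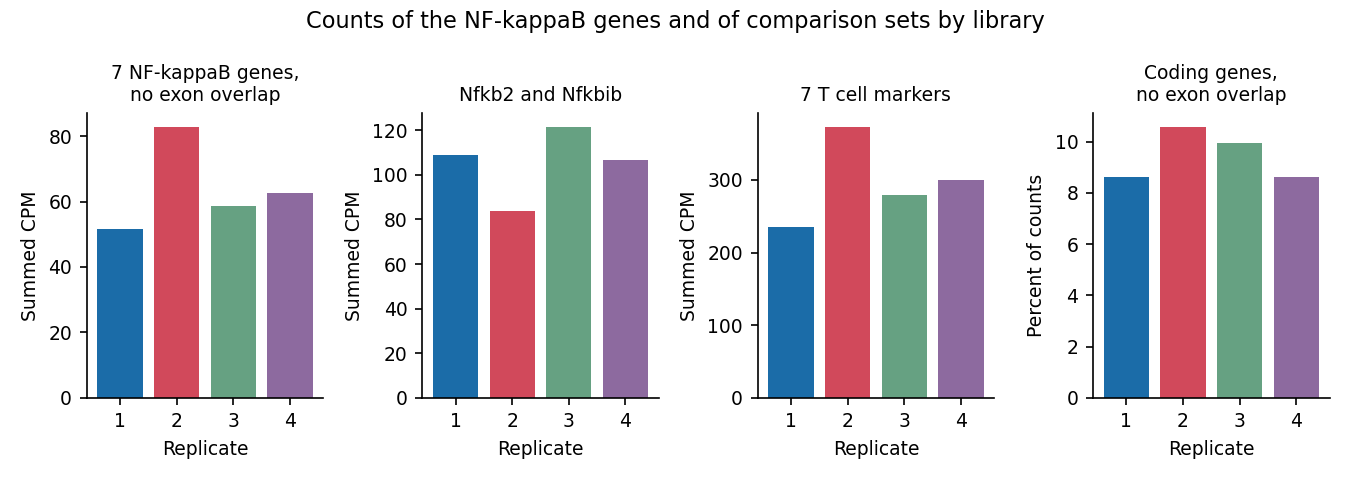
Summed CPM by library of the 7 NF-kappaB genes without exon overlap, of Nfkb2 and Nfkbib, and of 7 T cell markers, and the percent of counts in protein-coding genes without overlap. Replicate 2 is highest in every panel but that of Nfkb2 and Nfkbib, where it is lowest at 83.8 CPM.

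Spread between libraries was tested over all genes with edgeR's quasi-likelihood fit. Of 5755 genes with enough counts, 16 (0.278%) were more variable than genes of like abundance with p adjusted by the Benjamini-Hochberg method and a threshold of 0.05. The filter kept 5 of the 9 family genes, Nfkb1, Nfkb2, Rela, Nfkbia and Nfkbib, and none was called. Their unadjusted p ran from 0.379 for Nfkb1 to 0.824 for Nfkb2 (adjusted p = 0.995 for each). At an unadjusted p under 0.05 there were 0 of the 5 and 285 of all genes, and with DESeq2 size factors 0 of the 5 were called as well. Sirt2 had an unadjusted p of 0.0408 (edgeR adjusted p = 0.978), and Psd 0.643. Rel, Relb, Nfkbie and Tnfaip3 did not pass the filter. In the fit of all 17006 genes with a count their unadjusted p was 0.516, 0.757, 0.606 and 0.427 (edgeR adjusted p of 0.919 to 0.930), and 0 of the 9 family genes were called. What size of difference this test could detect at their counts was not measured.

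The 3 protein-coding genes nearest to Nfkbia in level over the 4 libraries, by root mean square difference of log2(TPM + 0.1), were Gpsm3 (0.110), Srsf6 (0.116) and Stk17b (0.142). None has an opposite-strand exon overlap. Like Nfkbia, they were lowest in replicate 1 and highest in replicate 2, a pattern of level over 4 libraries and no more.

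Of 37 genes that act in the NF-kappaB pathway, 33 reached a mean of 1 TPM, and of 19 target genes 8 did, beside the 34% of protein-coding genes given above. The medians were 2.91 and 0.576 TPM. The difference between the lists was not tested.

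The antigen receptor branch, which links protein kinase C-theta to the IkappaB kinases, was detected in 4 of 4 genes. Prkcq had 10.998 ± 2.96 TPM, Malt1 4.51 ± 1.97 and Bcl10 2.55 ± 1.002 (SD, n = 4). None of these genes has an opposite-strand exon overlap.

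Of 10 kinase genes and their adaptors 9 were detected. Ikbkg, the regulatory subunit NEMO, led with 16.6 ± 1.76 TPM (SD, n = 4), and it shares exon bases with G6pdx. The kinase subunits Ikbkb and Chuk had 2.59 ± 1.06 and 1.27 ± 0.899 TPM, Ikbke had 7.03 ± 2.34 and Tab2 3.64 ± 1.04. The lowest were Tab1 with 1.15 ± 0.643 and Tab3 with 0.328 ± 0.158. Map3k14, the kinase NIK of the alternative branch, had 16, 55, 15 and 16 counts.

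Of 9 adaptors of the TNF receptor family 7 were detected, with a median of 2.25 TPM. Ripk1 had 8.76 ± 3.21 TPM, Birc3 2.99 ± 1.75 and Tradd 2.50 ± 1.86, while Traf2 and Traf6 had 0.688 ± 0.546 and 0.649 ± 0.395 (SD, n = 4). The linear ubiquitin enzymes and brakes were detected in 10 of 11 cases. Tnip2 and Tnip1, partners of A20, had 15.9 ± 7.05 and 8.77 ± 2.10 TPM, and Otulin, a deubiquitinase of linear chains, 9.09 ± 3.38. The lowest were Pdlim2 at 1.24 ± 0.793 and Otud7b at 0.396 ± 0.331. The 3 atypical inhibitors Bcl3, Nfkbiz and Nfkbid had 3.37 ± 1.499, 2.92 ± 0.239 and 2.91 ± 0.784 TPM.

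Target genes ranged from Ltb, a lymphotoxin chain, at 28.5 ± 9.50 TPM to Csf2 and Ier3 with 0 counts in all libraries (SD, n = 4). Myc had 8.07 ± 1.71 TPM and the lymphotoxin gene Lta 3.09 ± 2.53. Tnf, a cytokine induced early by NF-kappaB, had 4, 2, 3 and 1 counts. At most 3 counts in all were found for 6 of the 19 genes, among them Il2, Ccl3 and Ccl4.

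**Figure D4:**
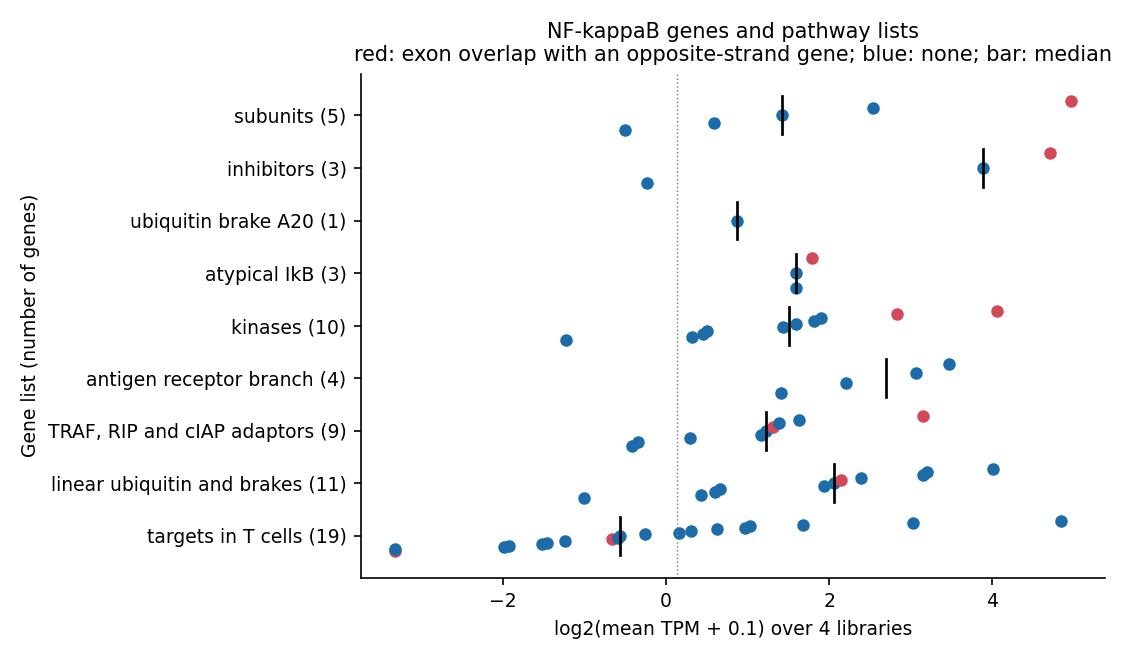
Mean level of each gene as log2(mean TPM + 0.1) by list, with a bar for the list median and a dotted line at 1 TPM. Red points share exon bases with an opposite-strand gene. Most targets lie left of the line, with a median of 0.576 TPM, and the inhibitor list has a median of 14.6 TPM.

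Opposite-strand exon overlaps were found at 8 of the 56 pathway genes, beside 4801 of the 21764 protein-coding genes. At 6 of the 8 the opposite gene with the most counts was denser in all 4 libraries, beside the 56.3% of all overlapping cases. With 8 genes, that count was not tested against the background. Opposite to Ikbke, a kinase related to TBK1, Gm28913 had 1920, 1787, 1611 and 1116 counts, while Ikbke had 76, 139, 80 and 44. Opposite to Traf5 were 546, 589, 509 and 394 counts in Gm26879, against 16, 20, 22 and 2 in Traf5. The counts of gene and opposite gene did not overlap at either of them.

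Other opposite genes also had more counts than the gene they overlap. Gm16175 opposite to Bcl3 had 88.2 CPM on average, Gm43966 opposite to Tax1bp1 111 and Gm47079 opposite to the adhesion gene Icam1 170, where Icam1 itself had 12 counts in all. In log2 density Ikbke differed from its opposite gene by -8.96 ± 0.46, Traf5 by -7.38 ± 1.27, Icam1 by -7.30 ± 1.82, Bcl3 by -7.24 ± 0.42, Tax1bp1 by -6.01 ± 0.41 and Ripk1 from Serpinb6a by -2.48 ± 0.68 (SD, n = 4). Ikbkg alone was denser than its partner, by 1.27 ± 0.27. Csf2 and its partner had 0 and 12 counts. The differences at Nfkb2 and Nfkbib, of -1.58, 1.60 and -0.45, lay nearer to balance than those of 6 of these genes. The kinds of partner differ, however. Psd, Sirt2 and Ccer2 are protein-coding, while Ikbke, Traf5, Icam1, Bcl3 and Tax1bp1 have partners with Gm names. Ripk1 and Ikbkg, whose partners Serpinb6a and G6pdx have no such name, differed by -2.48 and 1.27. Neither the difference nor the part of the kind of partner in it was tested.

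**Figure D5:**
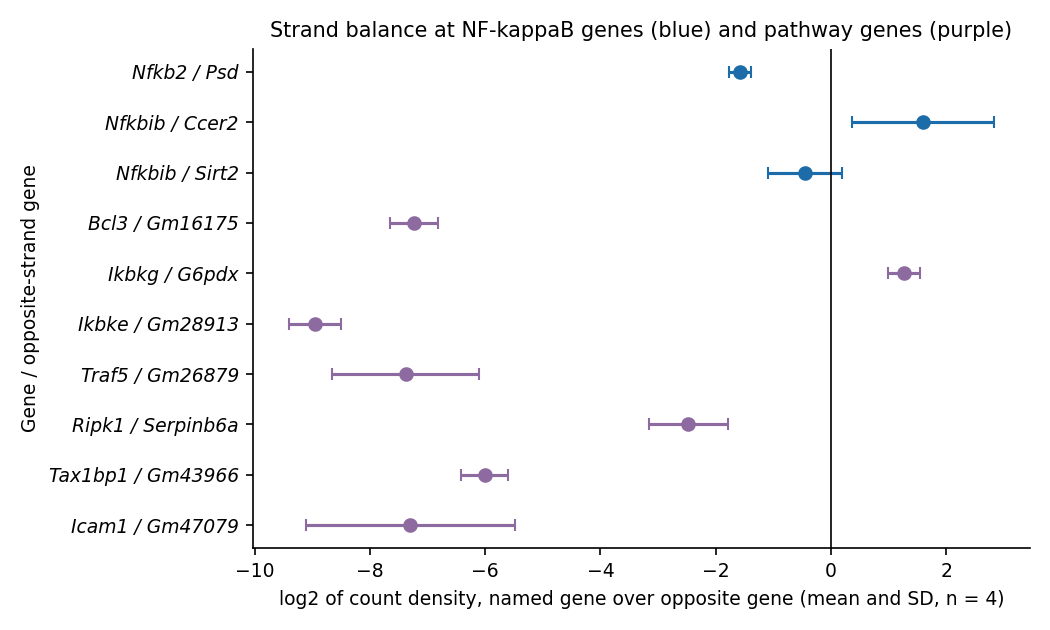
Log2 ratio of count density of the named gene over its opposite-strand gene, mean and SD over 4 libraries, for 3 overlaps of NF-kappaB genes (blue) and 7 pathway genes (purple). Values left of 0 mean a denser opposite gene. Ikbke lies farthest left at -8.96 and Nfkbib over Ccer2 farthest right at 1.60.

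Other transcription factor families known from T cells are given for scale. The median of the NF-kappaB genes was 2.59 TPM, beside 3.48 for 7 STAT genes, 5.11 for 8 IRF genes and 13.4 for 7 AP-1 genes, with 7, 7 and 6 of them detected. Exon overlaps touched 3, 4 and 3 of those genes and 2 of the 9 NF-kappaB genes, beside 4801 of the 21764 protein-coding genes. The STAT and AP-1 medians are each the value of a gene that has an overlap. What overlaps contribute to the medians was not tested, and no test was made between families.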

How the data were processed

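RNA fragments of 4 libraries of 1 group were analysed. Per the file headers, the authors counted fragments with featureCounts 1.4.6-p4 over exons of GENCODE mouse release 13, on the build mm10, requiring both ends aligned, with strand setting 1. The deposited values are raw counts per gene, not normalised. Exon length in bases, another deposited value, came from the same tables. The library kit and the aligner's version were not stated in the sources at hand. Signal tracks were not analysed here.

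TPM, CPM and exon overlaps were computed with Python 3.11.15 and pandas 2.3.3, with a pseudocount of 0.1 TPM for log2 levels and of 0.5 counts for log2 densities. Which gene was denser was read from densities without a pseudocount. Symbols matched 50376 of 50600 gene identifiers, and gene types came from GENCODE release 21. Overlapping cases in the background had at least 10 counts. Spread was fitted with edgeR 4.0.16 in R 4.3.3 (filterByExpr, TMM, intercept only, upper-tail F test of the quasi-dispersion). The step was also run on simulated counts with 1 fixed dispersion, which was not the one fitted to these data. No conclusion here rests on that run. DESeq2 1.42.0 gave the alternative size factors. Libraries were checked for copies (chi-square per degree of freedom 6.29 to 24.8 over the 6 pairs, so none was merged). The members, lists and tests were chosen with earlier results of these data known. By rule the text names all members, their opposite genes, the 3 highest and 2 lowest genes of each pathway list, those with a counted opposite gene, and the 3 genes nearest to Nfkbia. Chuk, Ikbkb, Map3k14, Tnf, Il2, Ccl3, Ccl4, Jund with Gm11175, the markers with their opposite genes and the neighbours within 5 kb fall outside that rule. They were named after their values were seen. Alternatives were other pseudocounts, scalings, filters and annotation of overlaps, and each library left out. Values of 2 listed genes are not reported here.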

Additional observations from a re-analysis of the deposited data

Results flagged for a closer look

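A library was singled out where its gap to the nearest of the other 3, as a share of the whole range, exceeded Dixon's 95% critical value. For normally distributed values chance does this for about 1 gene in 20. Of the 68 genes examined 7 met it, but for some of them the outcome was fixed, as given below. Among the family it was Tnfaip3, at 0.674 TPM in replicate 1 against 1.96 to 2.17 in the others. Bcl10, of the antigen receptor branch, was likewise low in replicate 1, at 1.07 TPM (7 counts against 14 to 21). Map3k7, the kinase TAK1, was high in replicate 2, at 3.04 TPM (29 counts against 4 to 8). The others rest on 1 or 2 counts: Il2 at 0.608, Ccl4 at 1.05 and Cd83 at 0.650 TPM in replicate 1, and Ccl3 at 1.0003 TPM in replicate 3. Each of these had counts in 1 library only, so its gap equals its range and it must meet the rule. The rate of 1 in 20 does not apply to such genes, and the 7 cannot be compared with it.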

How the results depend on the processing

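All 24 alternatives of the 3 strand comparisons, 1 of them for each added after the data were seen (counts not divided by exon length), kept their direction, over ranges of -1.83 to -1.52 for Nfkb2 over Psd, 1.02 to 2.65 for Nfkbib over Ccer2 and -1.66 to -0.20 for Nfkbib over Sirt2 (log2). Among the strand alternatives, those that changed or left out only the exon length shift every library alike, with the SD of the main setting. They do not remove fragments in the shared bases, and no alternative changed the strand setting. Of 56 alternatives of the 8 ratios, 55 kept their direction. Their size moved more. Without division by length, Nfkb1 over Nfkb2 went from -3.59 to -1.77, Rela over Rel from 2.01 to 0.63, Nfkbia over Tnfaip3 from 3.08 to 1.00 and Rel over Relb from 1.19 to 2.22. Over all alternatives Nfkbia over Nfkbie ran from 3.1995 to 5.57 and Rela over Relb from 2.06 to 3.595. The exception in direction was Nfkbia over Nfkb1, at -0.39 with TMM-scaled CPM that is not divided by length. The number of genes more variable than the trend was 7 to 10 with 1 library left out, and the cause of its difference from 16 was not tested. No member was called there. Members detected were 9 at a mean of 0.5 TPM, 5 at 2 TPM and 7 without CT010467.1 and the mitochondrial genes, a setting also added later. Among members without an overlap, 5 of 7 were detected. Release 21 leaves the same 7 without an overlap and gave no new counts, so that setting could not change this share. No paired analysis was possible because there is 1 group. Depth limits Relb and Nfkbie, with 12 and 10 counts in all.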
